A study of Mus musculus with 4 samples.

Results

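Cyp1a1 and 7 further genes of the aryl hydrocarbon receptor (AHR) pathway are described here in mouse small-intestinal crypts. They were taken by symbol from a fixed list (Ahr, Arnt, Cyp1a1, Cyp1a2, Cyp1b1, Aldh3a1, Ahrr and Tiparp), out of 27425 genes in either of 2 tables. The table without tetracycline listed 7 of them and the table with tetracycline listed 8. Cyp1a1 was selected on its log2 changes and p-values in these same fasting comparisons, and the pathway list was built around it. Every fasting change of a member below is therefore a description, and the authors' p-values for it support nothing further.

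The mice were male C57BL/6J, aged 9 weeks, and the labels name 4 samples, 1 in each group. The groups were fed (-Tetra), fasted for 24 hours (-Tetra), fed (+Tetra) and fasted for 24 hours (+Tetra), where +Tetra means 21 days of tetracycline, an antibiotic. Crypts, the pits of the gut lining that hold its stem cells, had been shaken off in EDTA buffer and split into single cells with trypsin. The design asks how a tetracycline-driven loss of what it abbreviates as AKK alters expression in fed against fasted animals. Each table compared fasted with fed mice and held 2 fasted and 2 fed libraries, recovered as whole counts from the authors' means. As deposited, the means summed to 65863300 normalized counts per library without and 65327200 with tetracycline. The labels tie none of these libraries to a sample or a mouse, so the p-values measure the spread between libraries, which may be technical. Neither table states its direction. Fasted over fed is the order in which the tables' names put these conditions, and every direction below depends on it. Under this reading Cyp4a10, a fatty acid hydroxylase that PPAR alpha induces, had a log2 change of 4.18 (SE 0.87) without and 3.93 (SE 0.45) with tetracycline in the authors' deposited tables.

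AHR is a ligand-activated transcription factor that waits in the cytosol with heat shock protein 90 and moves to the nucleus when it binds plant-derived indoles, microbial tryptophan products or pollutants. There it pairs with ARNT on xenobiotic response elements (XRE, core letters GCGTG). Its classical target Cyp1a1 encodes a cytochrome P450 that breaks such ligands down again, and in the gut this clearance limits how much ligand reaches deeper tissue. AHRR, a repressor that competes for ARNT, and TIPARP, an enzyme that ADP-ribosylates AHR, are targets that feed back on the receptor.

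Cyp1a1 was abundant in fed crypts and close to undetected in fasted ones, in both tables. Without tetracycline the fed libraries held 1657 and 2612 normalized counts of Cyp1a1 (counts divided by a library's size factor), and the fasted libraries 3.67 and 0. With tetracycline the fed libraries held 665 and 877 normalized counts of Cyp1a1, and the fasted libraries 0.823 and 1.38. All 4 fed libraries lay far above all 4 fasted ones, and the groups did not overlap in either table. The share of all genes without overlap is not given here. With 2 libraries a side, groups can fail to overlap at a change near 0. Clk3, a gene near Cyp1a1, did so without tetracycline at a log2 change of -0.035 (SE 0.25). Nothing is therefore read from a lack of overlap alone for any gene below.

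In whole counts, Cyp1a1 had 4 in fasted and 4270 in fed libraries without tetracycline, a fed-to-fasted ratio of 1077 (95% interval 420 to 3953, counting error only). With tetracycline the whole counts were 2 and 1658, a ratio of 733 (95% interval 203 to 6056, counting error only). The authors' deposited tables gave Cyp1a1 a log2 change of -10.08 (SE 0.80, adjusted p 7.2e-33) without and -9.54 (SE 1.12, adjusted p 1.36e-13) with tetracycline. Of the members with an adjusted p, Cyp1a1 was the 1 of 5 called without and the 1 of 6 called with tetracycline, both times lower in fasted mice. Over all genes tested, 2.27% were called without tetracycline (1.22% lower) and 0.6% with it (0.267% lower). At an unadjusted p under 0.05 there were 1954 of 18100 genes without and 960 of 17993 with tetracycline, the background for every such count of fasting changes below. Because Cyp1a1 chose the list, nothing is read from these counts.

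**Figure D1:**
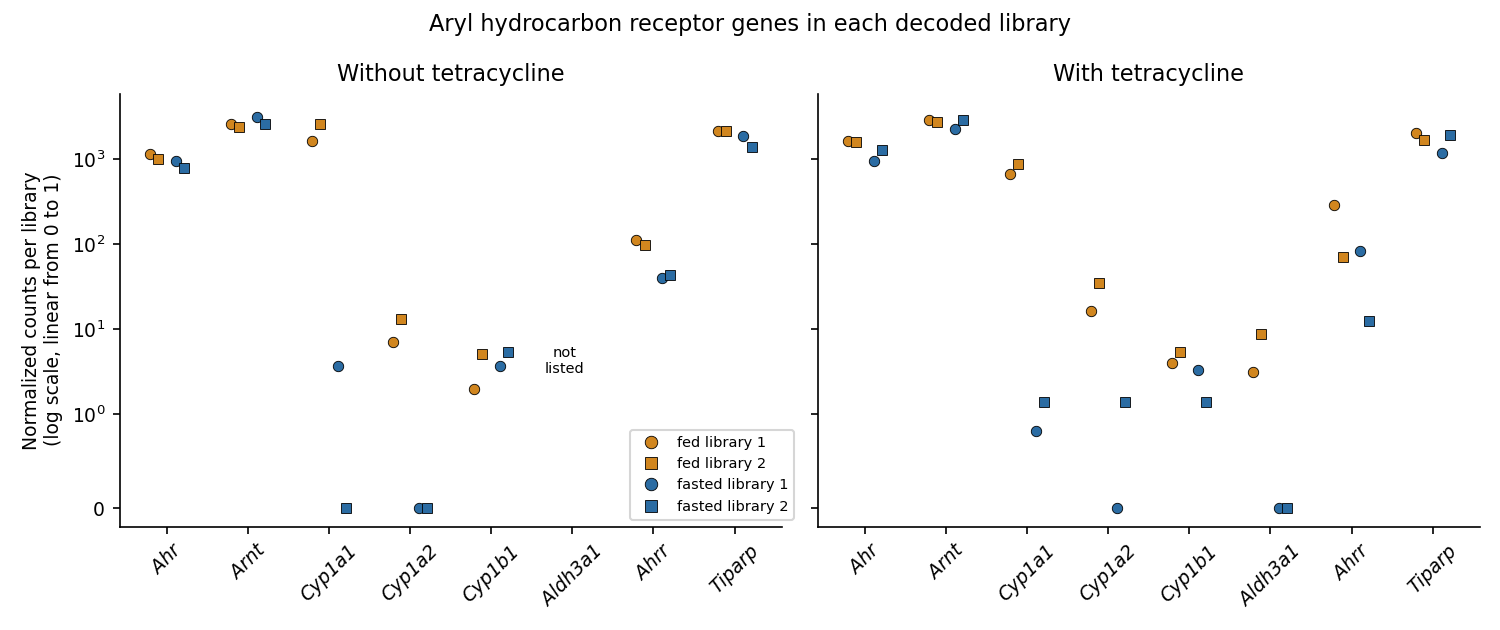
Normalized counts (vertical axis, log scale that is linear from 0 to 1) of the 8 genes in each decoded library, without (left) and with (right) tetracycline. Orange marks fed and blue fasted libraries, circles library 1 and squares library 2. Cyp1a1 drops from 1657 and 2612 to 3.67 and 0, while Arnt lies between 2442 and 3157 in the same libraries.

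In RefSeq (GRCm38.p6) the members lie at chr12:35497979-35534989 (Ahr), chr3:95434367-95497240 (Arnt), chr9:57687928-57703824 (Cyp1a1), chr9:57676937-57683655 (Cyp1a2), chr17:79706940-79715061 (Cyp1b1), chr11:61208510-61218418 (Aldh3a1), chr13:74211118-74292331 (Ahrr) and chr3:65528447-65555518 (Tiparp). GENCODE M21 lists a noncoding gene or pseudogene over part of Ahr (Gm48236), Arnt (Gm42672) and Tiparp (4931440P22Rik), whose reads could be counted to either gene.

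The sequence just before the start sites is shown for Cyp1a1, for Cyp1a2, its head-to-head neighbour, and for Ahrr, the repressor gene, with any XRE core in capitals. They are RefSeq promoter windows of GRCm38.p6, written 5′ to 3′ on the gene's strand and cut at the first annotated exon base: chr9:57697363-57697612 (+) for Cyp1a1, chr9:57683704-57683905 (-) for Cyp1a2 and chr13:74292332-74292581 (-) for Ahrr.
Cyp1a1: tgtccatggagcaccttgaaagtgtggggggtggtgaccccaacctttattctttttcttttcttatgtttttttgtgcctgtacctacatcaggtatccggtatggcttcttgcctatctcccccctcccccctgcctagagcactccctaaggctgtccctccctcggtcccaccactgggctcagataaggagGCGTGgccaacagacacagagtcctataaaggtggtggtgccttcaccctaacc
Cyp1a2: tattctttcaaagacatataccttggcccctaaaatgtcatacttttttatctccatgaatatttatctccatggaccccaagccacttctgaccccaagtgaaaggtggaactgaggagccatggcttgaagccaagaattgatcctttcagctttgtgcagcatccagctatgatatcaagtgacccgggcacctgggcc
Ahrr: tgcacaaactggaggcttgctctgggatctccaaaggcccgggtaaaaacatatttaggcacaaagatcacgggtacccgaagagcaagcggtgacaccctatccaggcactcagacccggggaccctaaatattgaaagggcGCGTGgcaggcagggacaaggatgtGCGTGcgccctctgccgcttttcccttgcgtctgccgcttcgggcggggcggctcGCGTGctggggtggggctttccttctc
The core GCGTG, searched on both strands, begins 54 bases before the start of Cyp1a1, and 107, 82 and 27 bases before that of Ahrr. In windows of 300 bases, 5 of the 6 members with a RefSeq window held it (Cyp1a1, Cyp1b1, Arnt, Ahrr and Tiparp), beside 32.4% of all 32851 windows. The longer TNGCGTG, which contains the core, occurred only in Ahrr among the 6, beside 5.07% of all windows. Ahr and Aldh3a1 were not matched. The known XRE cluster of Cyp1a1 lies farther upstream than these windows reach.

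Cyp1a2, a P450 best known from liver, lies on chromosome 9 with its start 13958 bases from that of Cyp1a1 and is transcribed away from it. The Cyp1a1 start meant here and in the sequence above is that of the RefSeq promoter table, position 57697613, which lies inside the gene span given above. Cyp1a2 had 6.95 and 13.1 normalized counts in fed libraries and 0 in both fasted libraries without tetracycline. With tetracycline it had 16.5 and 34.5 in fed against 0 and 1.38 in fasted libraries. The groups did not overlap in either table, at counts far below those of Cyp1a1. With a floor of 3 counts put in place of the 0 over the 2 fasted libraries, the fed-to-fasted ratio of Cyp1a2 without tetracycline was 6.72. The 95% interval of the ratio, counting error only, begins at 4.98, so 6.72 is not a lower bound. The counts with tetracycline gave back the deposited fold change to within 0.018. With tetracycline the fed-to-fasted ratio of its 53 and 1 counts was 46.9 (95% interval 8.05 to 1885, counting error only). It had no adjusted p without and an adjusted p of 0.19 with tetracycline in the authors' deposited tables, so it was not called.

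RefSeq places 10 other genes within 100 kb of the Cyp1a1 and Cyp1a2 pair, of which 6 had an adjusted p in each table. In either DESeq2-style table of the authors, 0 of the 6 were called (0 also at an unadjusted p under 0.05). Over all genes tested, 2.27% were called without and 0.6% with tetracycline. At shares this low, 0 of 6 is not informative about the locus. Ulk3 had a log2 change of -0.25 (SE 0.28) without and -0.22 (SE 0.42) with tetracycline, from the authors' deposited tables, and Csk -0.27 (SE 0.26) and -0.40 (SE 0.39). These 2 were picked after their values were seen.

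Cyp1b1, the P450 of this family that is best known outside epithelium, was near the limit of detection. Its normalized counts were 1.98 and 5.02 in fed against 3.67 and 5.38 in fasted libraries without tetracycline, which overlap. With tetracycline they were 3.94 and 5.39 in fed against 3.29 and 1.38 in fasted libraries, which do not overlap. The fed-to-fasted ratio was 0.784 (95% interval 0.248 to 2.37) without and 1.77 (0.551 to 6.59) with tetracycline, so no difference was detectable at this depth. The gene is known to be active in stroma, whose 7 markers, all listed, summed to 637 and 1757 normalized counts in fed against 327 and 498 in fasted libraries without tetracycline (3 of 7 called lower, the collagen genes Col1a1, Col1a2 and Col3a1, beside 1.22% of all genes). With tetracycline the sums overlap, at 691 and 498 in fed against 644 and 370 in fasted libraries (0 called, beside 0.6% of all genes, and 2 at an unadjusted p under 0.05 in that DESeq2-style table), and Dcn, Pdgfra and Pdgfrb had changes above 0. Their part in the Cyp1b1 values was not tested.

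Aldh3a1, an aldehyde dehydrogenase that AHR ligands induce in several tissues, was listed only with tetracycline. The table without it keeps rows from 2 counts upward. With tetracycline Aldh3a1 had 3.15 and 8.63 normalized counts in fed against 0 in both fasted libraries, with no adjusted p. The fed-to-fasted ratio was 3.54 with the floor of 3 counts in place of the 0. The 95% interval of the ratio, counting error only, begins at 2.46, below that value. Gastric surface genes varied alongside: the 4 markers Gkn1, Gkn2, Tff1 and Muc5ac summed to 2107 and 8585 normalized counts in those fed against 2.47 and 133 in those fasted libraries. Their part in the Aldh3a1 values was not tested.

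Neither the receptor nor its partner was called. Ahr had 1168 and 1004 normalized counts in fed against 972 and 801 in fasted libraries without tetracycline. With tetracycline it had 1638 and 1604 in fed against 954 and 1277 in fasted libraries. Every fasted library lay below every fed library of its table, which with 2 libraries a side also occurs at changes near 0. The log2 changes of -0.29 (SE 0.28, adjusted p 0.829) and -0.54 (SE 0.39, adjusted p 1.0) in the authors' deposited tables were not called.

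Arnt, the obligate partner of AHR and also of the hypoxia factors, had 2601 and 2442 normalized counts in fed against 3157 and 2603 in fasted libraries without tetracycline. With tetracycline it had 2942 and 2779 in fed against 2287 and 2911 in fasted libraries, which overlap. The log2 changes of 0.19 (SE 0.26) and -0.14 (SE 0.37) in the authors' deposited tables were not called (adjusted p 0.910 and 1.0). The sign with tetracycline became positive, at 0.025, when fasted library 1 was left out.

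**Figure D2:**
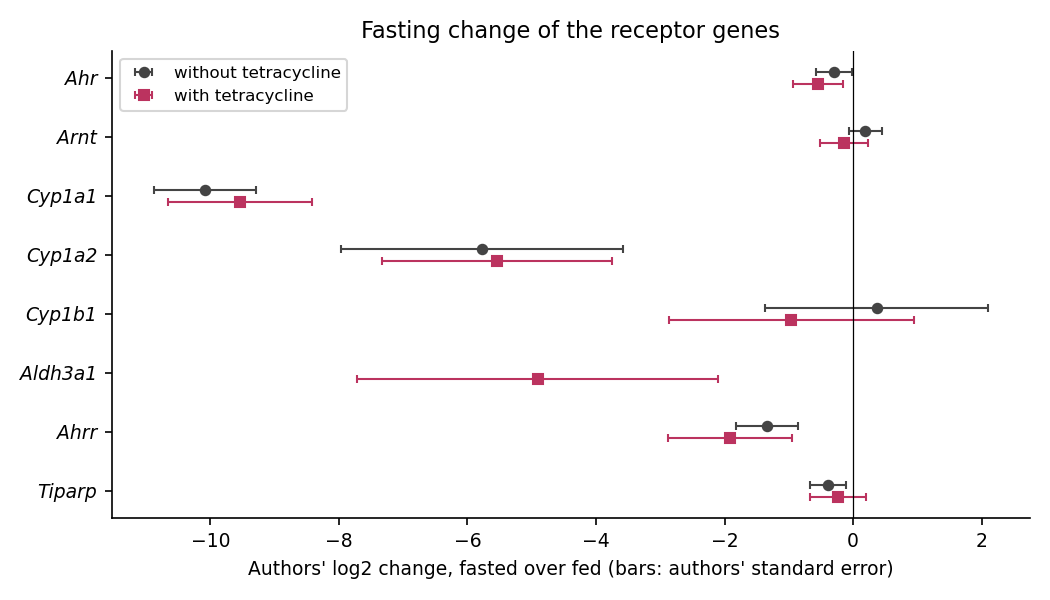
The authors' log2 change, fasted over fed, with the authors' standard error as bars, for the 8 genes without (black circles) and with (red squares) tetracycline. Cyp1a1 lies near -10 in both, Ahr and Arnt near 0, and the values of Cyp1a2 and Aldh3a1 come from fits with a side at 0 or 1 counts, so their size is uncertain.

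Neither feedback gene was called. Ahrr had 113 and 98.5 normalized counts in fed against 40.4 and 43.0 in fasted libraries without tetracycline, with no overlap. With tetracycline Ahrr had 292 and 71.2 in fed against 83.1 and 12.4 in fasted libraries, which overlap. The log2 change was -1.34 (SE 0.48, adjusted p 0.138) without and -1.92 (SE 0.96, adjusted p 0.925) with tetracycline in the authors' deposited tables, so Ahrr was called in neither. With tetracycline the value rested on single libraries: it became -0.57 without fed library 1 and -3.77 without fasted library 1 (pseudocount 1).

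AHRR is also made in immune cells, and lymphocyte and most myeloid markers used here varied with it. All 5 lymphocyte markers used were listed in both tables, and 4 of them (Cd3e, Cd3g, Trdc and Ms4a1) could be read per library. They summed to 7193 and 8818 normalized counts in fed against 2790 and 5786 in fasted libraries without tetracycline, and to 31976 and 7987 in fed against 9995 and 1469 in fasted libraries with it. In 1 of the 5 the authors' adjusted p called a fall without tetracycline, beside 1.22% of all genes, and in 0 with it, beside 0.267% (3 at an unadjusted p under 0.05 in each DESeq2-style table). Per 1000 of these lymphocyte counts, Ahrr stood at 15.7 and 11.2 in fed against 14.5 and 7.43 in fasted libraries without tetracycline, which overlap. With tetracycline it stood at 9.14 and 8.91 in fed against 8.31 and 8.43 in fasted libraries, a narrow range in which both fed values were the higher ones. These ratios depend on which markers are summed. The 6 myeloid markers, all listed, summed to 1980 and 3257 normalized counts in fed against 1021 and 1653 in fasted libraries without tetracycline, and to 6475 and 2432 in fed against 2219 and 553 in fasted libraries with it. Of these, 1 was called lower without tetracycline (Lyz2), beside 1.22% of all genes, and 0 with it, beside 0.267% (3 at an unadjusted p under 0.05 in each DESeq2-style table). Cd14 was the 1 of the 6 with a change above 0 in each table, at 0.0050 (SE 0.33) without and 0.49 (SE 0.45) with tetracycline. The part of both cell types in the Ahrr values was not tested, and fewer such cells cannot be told apart from less RNA per cell in bulk samples. Cyp1a1 too was lower in the fasted libraries, where 3 of the 4 lymphocyte sums lay below every fed sum. Among fed libraries, the one with more lymphocyte counts had more Cyp1a1 without tetracycline (2612 against 1657) and less with it (665 against 877). The part of these cells in the Cyp1a1 values was not tested.

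**Figure D3:**
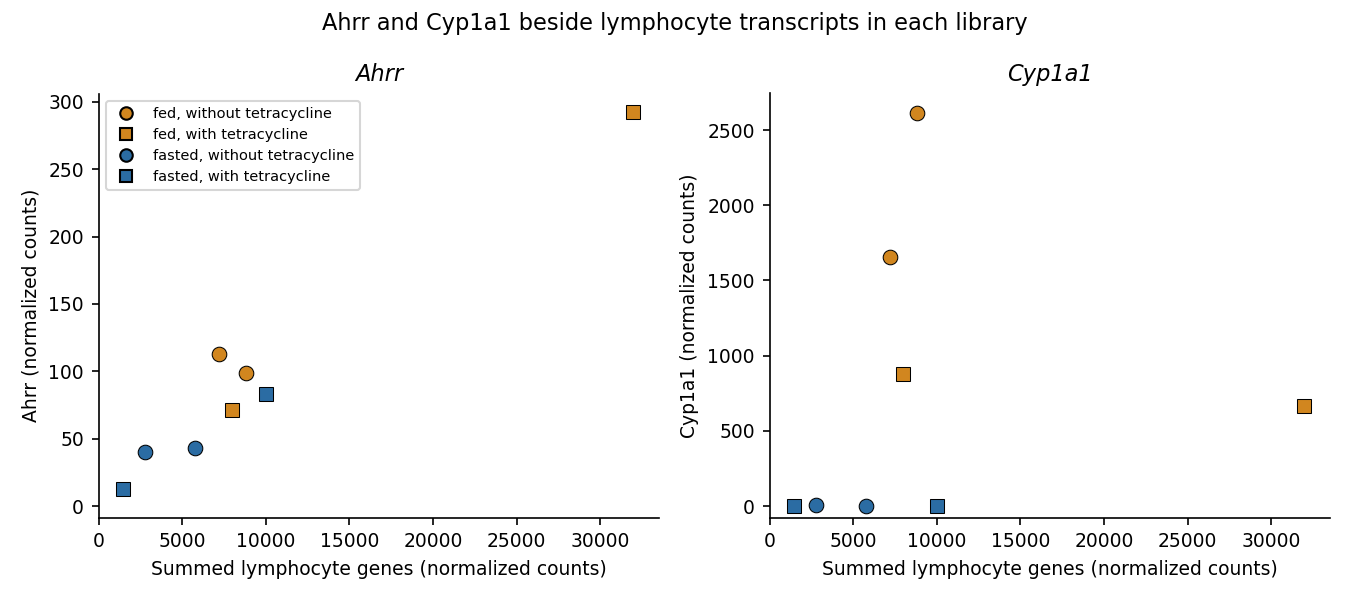
Normalized counts of Ahrr (left) and Cyp1a1 (right) against the summed normalized counts of 4 lymphocyte genes, 1 point per decoded library (orange fed, blue fasted, circles without and squares with tetracycline). The fed library at 31976 lymphocyte counts has the highest Ahrr, 292, and 665 of Cyp1a1. Every fasted library lies near 0 for Cyp1a1.

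Tiparp had 2173 and 2148 normalized counts in fed against 1884 and 1412 in fasted libraries without tetracycline, with no overlap. With tetracycline it had 2049 and 1704 in fed against 1207 and 1967 in fasted libraries, which overlap. The log2 changes of -0.39 (SE 0.28, adjusted p 0.701) and -0.24 (SE 0.44, adjusted p 1.0) in the authors' deposited tables were not called, and the second became 0.068 without fasted library 1.

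Set per kilobase of merged exons, the order of levels in fed mice without tetracycline was Cyp1a1 (766 normalized counts per kilobase), Tiparp (496), Arnt (315), Ahr (176), Ahrr (11.2), Cyp1a2 (4.88) and Cyp1b1 (0.601). With tetracycline Tiparp (431) and Arnt (357) stood above Cyp1a1 (277) and Ahr (263), and the libraries of Cyp1a1 (239 and 315) overlapped those of Ahr (266 and 260). In fasted mice Cyp1a1 stood at 0.705 without and 0.372 with tetracycline, and Cyp1b1 at 0.774 and 0.407 normalized counts per kilobase.

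Whether tetracycline altered the fasting change was read as the difference between the tables. It is computed from the same changes that selected Cyp1a1, so for Cyp1a1 it is a description. The Wald test with Benjamini-Hochberg adjustment called 0 of the 5 members tested (0 at an unadjusted p under 0.05), and 0.0228% of all 17571 genes. At an unadjusted p under 0.05 in this Wald test there were 185 of the 17571 genes. The test statistic had an SD of 0.73 over these genes, narrower than its normal reference, so few genes could be called. For Cyp1a1 the change with tetracycline minus that without was 0.54 (SE 1.37, 95% interval -2.15 to 3.24). The intervals were -1.19 to 0.69 for Ahr, -1.23 to 0.56 for Arnt, -2.67 to 1.53 for Ahrr and -0.86 to 1.16 for Tiparp. Each interval gives the differences compatible with 2 libraries a side, before adjustment for the number of genes tested. The bounds are not limits of detection.

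Levels with against without tetracycline lie in tables scaled separately, so they are given without a test. In fed mice the rebuilt mean of Cyp1a1 was 2135 normalized counts without and 771 with tetracycline, a centred log2 ratio of -1.53. Both fed libraries with tetracycline lay below both without it. Cyp1a2 went the other way, from 9.82 to 25.7 normalized counts, a log2 ratio of 1.24. Ahr was at 0.52, Ahrr at 0.71, Arnt at 0.12, Cyp1b1 at 0.26 and Tiparp at -0.26. The Ahrr value rests on fed library 1 with tetracycline, which also had the most lymphocyte counts: its 292 normalized counts of Ahrr lay above the 113 and 98.5 without tetracycline, and the 71.2 of fed library 2 below both. Thus 1 of 7 members was lower by at least 1, beside 3.4% of 21925 genes, and 1 was higher by at least 1, beside 8.38%. In fasted mice 0 of the 7 were lower and 0 higher by that much, beside 3.92% and 3.13% of genes, and the ratios ran from -0.77 for Cyp1b1 to 0.33 for Cyp1a2.

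Other genes known to respond to AHR were taken as a list of 13, of which 12 were in each table and 11 had an adjusted p. Without tetracycline 3 of the 11 fell in fasted mice (Nqo1, Gsta1 and Gsta2) and 0 rose, beside 1.22% and 1.06% of all genes. All 3 encode detoxifying enzymes that the antioxidant factor NRF2 also drives. With tetracycline 0 of the 11 were called in the authors' DESeq2-style table (0 at an unadjusted p under 0.05), beside 0.6% of all genes. The median change of the 11 was -0.19 without and -0.34 with tetracycline, beside 0.0067 and -0.018 over all genes tested. Over all 12 listed it was -0.15 and -0.43.

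Nqo1, a quinone reductase, had 3230 and 4312 normalized counts in fed against 1601 and 1728 in fasted libraries without tetracycline, a log2 change of -1.18 (SE 0.27, adjusted p 0.00188), taken from the authors' deposited table. With tetracycline it had 3165 and 3584 in fed against 2231 and 2276 in fasted libraries, a change of -0.58 (SE 0.36, adjusted p 1.0). The groups did not overlap in either table. Gsta1, a glutathione transferase, changed by -1.81 (SE 0.38, adjusted p 0.000284) and -1.04 (SE 0.65, adjusted p 1.0) in the authors' deposited tables.

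Gsta2, a close copy of Gsta1 with which it may share reads, had 180 and 420 normalized counts in fed against 76.1 and 126 in fasted libraries without tetracycline (log2 change -1.57, SE 0.48 and adjusted p 0.0465, from the authors' deposited table). With tetracycline its change was -0.78 (SE 0.62 and adjusted p 1.0, from the authors' deposited table). For 0 of the 3 was the difference between the tables called (Wald test, adjusted p 1.0 each, unadjusted p 0.186 for Nqo1, 0.306 for Gsta1 and 0.311 for Gsta2). Of the others, Cyp2s1 was at -0.030 (SE 0.26) without and 0.82 (SE 0.50) with tetracycline, Scin at 0.031 (SE 0.24) and 0.59 (SE 0.53), and Xdh at -0.10 (SE 0.35) and -1.04 (SE 0.54), genes named after their values were seen.

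**Figure D4:**
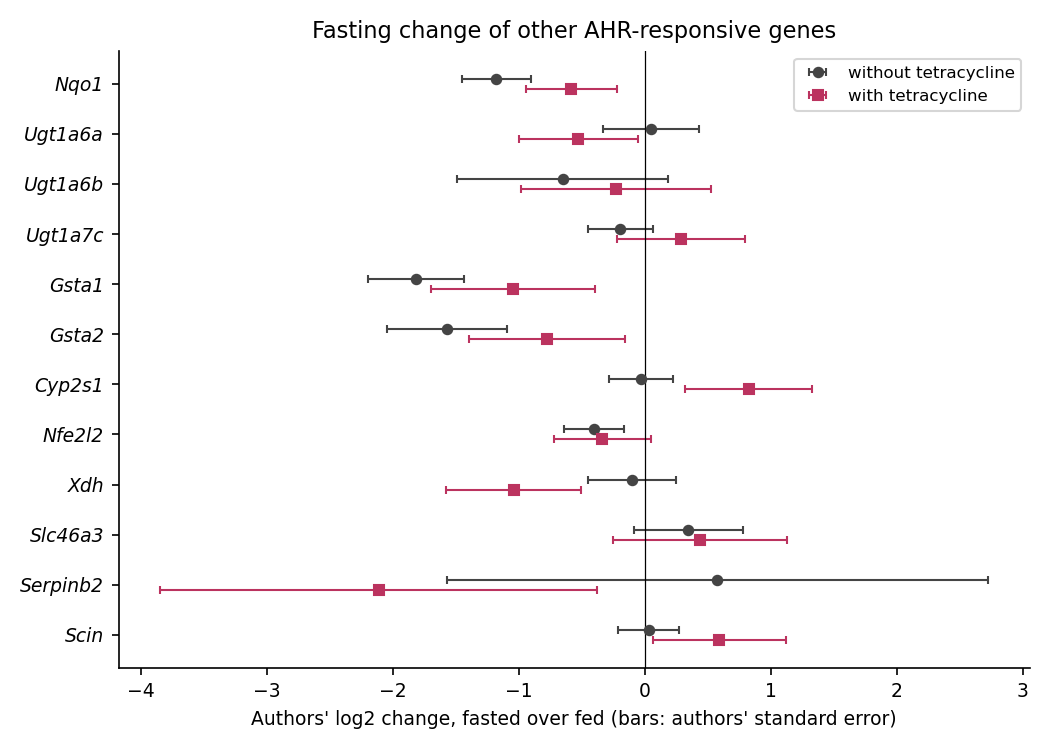
The authors' log2 change, fasted over fed, with the authors' standard error as bars, for the 12 listed genes of the AHR-responsive list, without (black circles) and with (red squares) tetracycline. Nqo1, Gsta1 and Gsta2 lie at -1.18, -1.81 and -1.57 without tetracycline, and the other points without tetracycline lie between -0.65 and 0.58.

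Of the chaperones that hold AHR in the cytosol, Hsp90aa1, Hsp90ab1 and Ptges3 were tested. In either DESeq2-style table of the authors, 0 of the 3 were called (2 at an unadjusted p under 0.05 without and 0 with tetracycline, beside 1954 of 18100 and 960 of 17993 genes). Over all genes tested, 2.27% were called without and 0.6% with tetracycline, the shares for the lists in this paragraph. Hsp90aa1 had a log2 change of -0.66 (SE 0.27) and -0.73 (SE 0.44), and Ptges3 of -0.50 (SE 0.25) and -0.35 (SE 0.37), in the authors' deposited tables. Hsp90ab1, the one with the highest mean, was at 0.078 (SE 0.31) and 0.24 (SE 0.43) there. Of 6 genes for partners or relatives of ARNT (Arnt2, Arntl, Hif1a, Epas1, Npas2 and Sim2), all were listed and 5 tested, and 0 were called in either table (1 and 0 at an unadjusted p under 0.05). Epas1, which encodes the hypoxia factor HIF-2 alpha, had the largest change of the 5 tested without tetracycline, at 0.70 (SE 0.26, adjusted p 0.176), against 0.095 (SE 0.59) with it in the authors' deposited tables. Hif1a was at 0.38 (SE 0.27) and -0.18 (SE 0.43) there. Of the other xenobiotic receptors and the P450 reductase chain (Nr1i2, Nr1i3, Rxra, Por, Cyb5a and Cyb5r3), 0 of 6 were called in either table, beside 2.27% and 0.6% of all genes (0 and 1 at an unadjusted p under 0.05). Por, the reductase that feeds electrons to the microsomal P450s, had a log2 change of 0.41 (SE 0.29) without and 1.39 (SE 0.57) with tetracycline, and Cyb5a of -0.56 (SE 0.31) and 0.075 (SE 0.59), from the authors' deposited tables.

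The tissue markers around Cyp1a1 were as follows. Of 8 epithelial and of 8 mature enterocyte markers, 0 were called in either table, beside 2.27% of all genes without and 0.6% with tetracycline (2 of each at an unadjusted p under 0.05 without, 0 and 1 with tetracycline, beside 1954 of 18100 and 960 of 17993 genes). The epithelial markers summed to rebuilt means of 645541 normalized counts (fed) and 547395 (fasted) without tetracycline, and of 533377 (fed) and 495417 (fasted) with it. The enterocyte list had a median log2 change of 0.51 and 0.41. Its rebuilt means summed to 1116550 normalized counts (fed) and 1515770 (fasted) without tetracycline, and to 892880 (fed) and 1645320 (fasted) with it. These sums exceed the epithelial ones, so the crypt preparations held many transcripts of mature enterocytes. Of the distal markers, Fabp6, an ileal bile acid carrier, fell by 5.13 on the log2 scale (SE 0.34, adjusted p 1.46e-48) without tetracycline in the authors' deposited table, and was at -2.21 (SE 0.75, adjusted p 0.268) with it. The other distal markers were not called. Osr2 was at -0.62 (SE 0.32) without and 0.70 (SE 0.38) with tetracycline, Slc10a2 at -0.96 (SE 1.35) and 0.49 (SE 0.83), and Fgf15 at -0.42 (SE 0.55) and -0.89 (SE 0.83), so with tetracycline Osr2 and Slc10a2 had the opposite sign to Fabp6. Of 5 proximal markers, 1 was called lower and 1 higher without tetracycline, beside 1.22% and 1.06% of all genes, and 1 lower with it, beside 0.267%. Slc40a1, the iron exporter, changed by -1.28 (SE 0.34, adjusted p 0.0113) and -1.91 (SE 0.49, adjusted p 0.0201) in the authors' deposited tables, and Fabp1 rose by 1.08 (SE 0.27, adjusted p 0.00656) without tetracycline and was at 0.98 (SE 0.38, adjusted p 0.553) with it. The uncalled ones were Gata4, at 0.013 (SE 0.25) and -0.20 (SE 0.40), Onecut2, at 0.52 (SE 0.28) and -0.40 (SE 0.38), and Cybrd1, at -0.46 (SE 0.31) and -0.83 (SE 0.55). The part of gut position in the Cyp1a1 values was not tested. The 4 gastric markers, all listed, summed to 67.5 and 703 normalized counts in fed against 2.75 and 652 in fasted libraries without tetracycline (0 called, beside 2.27% of all genes, and 0 at an unadjusted p under 0.05 in that DESeq2-style table). With tetracycline they ran with Cyp1a1, at 2107 and 8585 in fed against 2.47 and 133 in fasted libraries, and 1 of the 4, Muc5ac, was called lower (the authors' deposited table gave an adjusted p of 2.96e-05), beside 0.267% of all genes. Their part in the Cyp1a1 values was not tested. Hepatocyte markers summed to at most 82.6 normalized counts in any library.

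The genes closest to Cyp1a1 in the pair of fasting changes are given as a description, since these changes selected Cyp1a1. Likeness was the distance between pairs of fasting changes, without and with tetracycline, on the log2 scale of rebuilt means plus 1, over 12492 genes with a mean of at least 50 in both tables. The pseudocount limits how far a gene of low mean can fall on this scale, and at a mean of at least 10 only 2 of the 5 genes below were again among the closest. Cyp1a1 stood at -9.49 and -8.57. The closest gene, Pramel34, stood at -3.78 and -4.66, a distance of 6.92. Gsdmc4, a gasdermin, stood at -2.98 and -4.45, and Fabp6 at -5.13 and -2.21. They were followed by ccdc198 (as the files spell it), at -3.33 and -3.47, and the chemokine gene Ccl24, at -3.91 and -2.73.

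**Figure D5:**
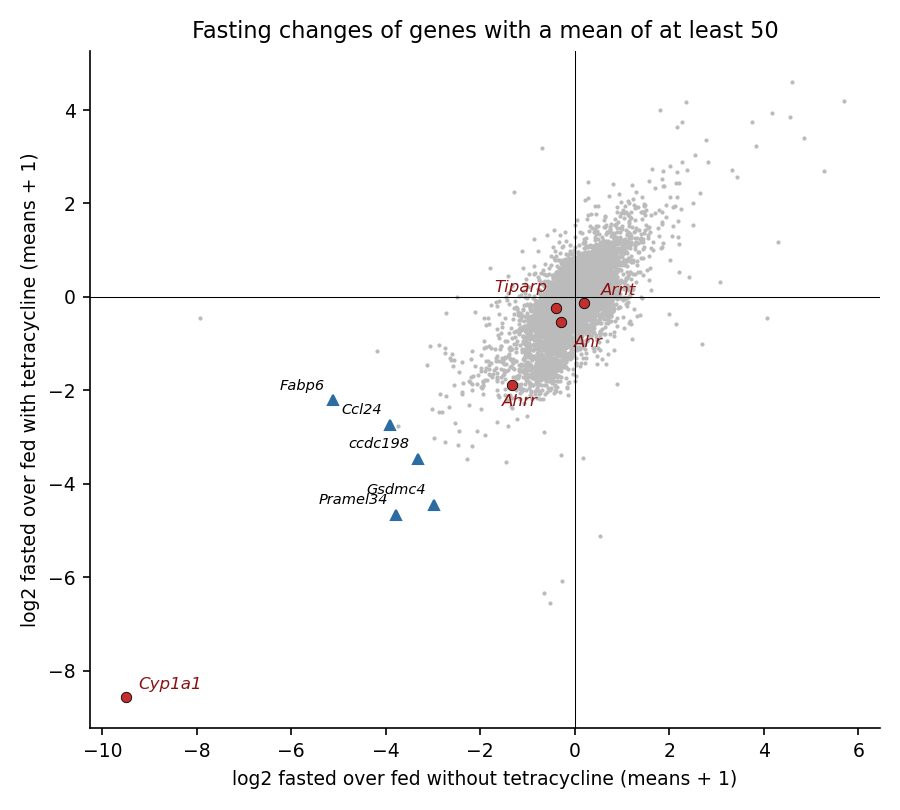
Fasting change without (horizontal) and with (vertical) tetracycline, each the log2 ratio of fasted to fed rebuilt means plus 1, for genes with a mean of at least 50 in both tables (grey points). Red circles are the 5 members above that mean and blue triangles the 5 genes nearest to Cyp1a1, which sits at -9.49 and -8.57 with the nearest gene 6.92 away.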

How the data were processed

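Per the labels, RNA was sequenced with a non-directional kit, so overlapping genes on opposite strands cannot be separated. The submitters' processing notes name Salmon, DESeq2 and mm10 without roles. The 2 deposited tables are the authors' own comparisons of fasted with fed mice. Per the file headers, the authors' mean is a signal, the average of normalized counts over a table's libraries. Per the file headers, fold change and standard error, as deposited, are log2 values. The deposited statistic is a score, the quotient of these 2. The deposited p-values come raw and adjusted by Benjamini-Hochberg. The quotient and the adjustment held in the deposited values. Per-sample columns left unused number 0. The identifier versions matched GENCODE M21 for 0.0509% of 25522 identifiers, and 99.3% matched without the version, so positions come from the references and not from the files.

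Each mean is a sum of whole counts, each times a step fixed for its library. The smallest means gave the 4 steps of each table. Counts were solved for listed genes with a mean up to 5000, and 100% of 86 genes without and of 85 with tetracycline gave 1 set. The deposited fold change bounded the search and, where several sets fitted, selected the one that matched it within 0.001. A negative binomial fit of these counts differed from the deposited fold change by a median of 6.54e-07 and 1.62e-06, and by over 0.01 for 0 of 81 and 4 of 81 genes. With Salmon the whole counts may be rounded estimates. Of the 2 libraries of a side, the one with the larger size factor is called library 1. Size factors spanned 1.17-fold without and 1.75-fold with tetracycline. Total depth was not recovered. Intervals (exact Clopper-Pearson, 95%) cover counting error only. A floor puts 3 counts over a side in place of 0 and is not a bound.

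Calls are the authors' adjusted p under 0.05 from their DESeq2-style table. The difference between tables was tested per gene with a Wald test (change with minus change without tetracycline, two-sided normal p), adjusted by Benjamini-Hochberg over 17571 genes. Levels with against without tetracycline are log2 ratios of means rebuilt from the deposited mean and fold change, with pseudocount 1, centred on the median ratio, and not tested. Sequences and positions are from RefSeq, GRCm38.p6, and exon lengths from GENCODE M21. Steps were tested on simulated data (Python 3.11.15, numpy 2.4.6, pandas 2.3.3, scipy 1.17.1). A protein comparison was planned and is not reported. Some planned list members are not reported here. The design had allowed for values per sample, and the tables hold comparisons.

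The members and gene lists were chosen with earlier results of these data known. Named genes were the 8 members, the called genes of each list, or else the 2 largest changes without tetracycline at a mean of 10 or more, and the 5 genes closest to Cyp1a1. Alternatives covered thresholds, pseudocounts, filters on the mean, centring and leaving out each library.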

Additional observations from a re-analysis of the deposited data

How the results depend on the processing

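The single call of each fasting comparison, Cyp1a1, held at adjusted p limits of 0.01 and 0.1, with every row adjusted and with a mean of at least 10. Of 49 alternatives for counts and list medians, 47 held and 2 moved. With pseudocount 5 in place of 1, 0 members were higher by at least 1 with tetracycline in fed mice, as Cyp1a2 dropped below that size at its low counts. With TNGCGTG in place of GCGTG, 1 member promoter held the motif. Of 156 alternatives for single genes and for the set of closest genes, 136 held and 20 moved, and no called value changed sign. A value counted as held could still change sign where it was not called. Leaving out each library was done with pseudocount 1, which alone puts Cyp1a1 at -9.49 without and -8.57 with tetracycline. It gave Cyp1a1 changes from -11.06 to -8.84 without and from -8.73 to -8.31 with tetracycline, and Ahrr changes from -1.42 to -1.22 and from -3.77 to -0.57. The sign changed for Cyp1b1 without (-0.13) and for Arnt and Tiparp with tetracycline (0.025 and 0.068). The Cyp1a2 difference between the tables also changed sign, from 0.23 to -0.91 with pseudocount 1. All of these sign changes are counted among the 136 that held. Of the 5 genes closest to Cyp1a1, 2 were shared with those found at a mean of at least 10. Low counts limit Cyp1a2, Cyp1b1 and Aldh3a1. No paired analysis was possible because the deposited tables carry no replicate numbers. Pooling the counts of a side was an alternative chosen after seeing the data.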

Other observations

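ARNT also serves the hypoxia factors, and a list of 10 of their targets was read in the same tables. Without tetracycline 1 of the 10 fell and 1 rose in fasted mice, beside 1.22% and 1.06% of all genes. With it 0 were called in the authors' DESeq2-style table, beside 0.6% of all genes (1 at an unadjusted p under 0.05). Ankrd37, an ankyrin repeat gene, had 201 and 354 normalized counts in fed against 48.6 and 33.3 in fasted libraries without tetracycline, a log2 change of -2.76 (SE 0.45 and adjusted p 5.28e-07, from the authors' deposited table). With tetracycline it had 239 and 218 in fed against 56.8 and 304 in fasted libraries, so the fasted libraries differed from each other. The difference between tables was 2.41 (SE 0.89, unadjusted p 0.00663, adjusted p 1.0 in the Wald test). Ndrg1, a stress-responsive gene, rose by 0.98 (SE 0.26 and adjusted p 0.0133, from the authors' deposited table) without tetracycline and had a change of 1.79 (SE 0.62, adjusted p 0.299) with it.

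Enzymes of tryptophan catabolism (Ido1, Il4i1, Afmid, Kmo, Kynu and Tph1), some of whose products are AHR ligands, gave 0 called of 6 tested in either DESeq2-style table (1 in each at an unadjusted p under 0.05). Over all genes tested, 2.27% were called without and 0.6% with tetracycline. Il4i1, an amino acid oxidase, had 96.3 and 193 normalized counts in fed against 62.4 and 77.4 in fasted libraries without tetracycline, and 363 and 80.9 in fed against 126 and 24.8 in fasted libraries with it. The lymphocyte sums were highest in the same fed library. Afmid, a formamidase of the kynurenine route, changed by 0.54 (SE 0.28) and 0.34 (SE 0.48) in the authors' deposited tables. Kmo had 1933 normalized counts in fasted library 2 with tetracycline, against 189 to 313 in the other 3 libraries of that table, and was named after its values were seen.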
